A study of Saccharomyces cerevisiae with 2 samples.

Results

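The G1/S deletion strains described here lack the transcription factor genes SWI4, SWI6, MBP1 and HCM1, the G1 cyclin genes CLN1, CLN2 and CLN3, the S-phase cyclin genes CLB5 and CLB6, or the Cdk inhibitor gene SIC1. These 10 strains were found by gene symbol among 5325 named deletion strains on a yeast tag microarray, and 100 of 18794 named features with a value belonged to them. Each pool held haploid Saccharomyces cerevisiae strains that lack 1 gene each and were made, per the labels' protocols, from 5896 heterozygous diploid knockout strains. The control pool carried a control plasmid and the LCD1 pool a GAL1-LCD1 plasmid. Both plasmids were selected by URA3, and the spores of both pools grew for 3 days at 30 °C on haploid selection plates with 2% galactose as the carbon source. GAL1 is a galactose-inducible promoter, so LCD1 expression was driven by the medium itself, and the amount of Lcd1 in the haploids was not measured here. Both pools were compared on 2 arrays, with the control pool in Cy5 and the LCD1 pool in Cy3 each time, so dye and pool cannot be told apart.

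Each strain carries a pair of short DNA tags, which were amplified from genomic DNA of the pool. The ratio of tag signals between the pools therefore reports the relative abundance of a strain. Fewer haploids formed, slower growth and background signal cannot be told apart in such a ratio. Values are log2 ratios of LCD1 pool to control pool, with the direction taken as likely, centred so that the median strain of each tag and array lies at 0. A log2 value of 1 is thus 2-fold higher and -1 is 2-fold lower. The likely direction rests on the strain without LCD1 itself (YDR499W), which needs the plasmid to grow. That strain read 4.24 and 4.97 with its first tag on arrays 1 and 2, and 1.01 and 0.30 with its second. Were the deposited ratio to run the other way, every sign given here would turn.

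Lcd1, known as Ddc2 too, binds the checkpoint kinase Mec1, and the pair acts when replication forks stall or DNA is damaged. Cells enter the division cycle when the cyclin Cln3 with the kinase Cdc28 turns on the transcription factors SBF, formed by Swi4 and Swi6, and MBF, formed by Mbp1 and Swi6. SBF drives the cyclin genes CLN1 and CLN2, and MBF drives CLB5, CLB6 and many replication genes. Cln kinases then mark Sic1, the inhibitor of Clb5 and Clb6 kinase, for destruction, which lets replication origins fire. Hcm1, a forkhead factor whose gene is itself a G1/S target, acts next and drives genes for spindle assembly and the later forkhead factors. In budding yeast MBF is also linked to the checkpoint, because its corepressor Nrm1 is a target of the checkpoint kinase Rad53. Haploids that lack any 1 of these 10 genes are viable, so their tags can report on growth in both pools.

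The strain without HCM1 stood highest of the 10 and the strain without SIC1 lowest. The strains without SWI4 and CLB5 lay below 0 by smaller amounts, and the other 6 were within 0.25 of 0 on the log2 scale. Of all 5325 strains, 50.9% lay within the same distance of 0. The 5325 include strains without essential genes, such as CDC28 and SPC34, whose tag ratios are no measure of growth. Every background share and rank over all strains mixes these with viable strains. The median of the 10 was 0.081, against 0.036 for all strains, with 4 of the 10 below 0 and 6 above. By limma, fitted over all strains, 0 of the 10 passed at an adjusted p under 0.05, as did 0 of 5325 (background 0% in each direction, lowest adjusted p 0.0941). Before adjustment, 3 lower strains (SIC1, SWI4, CLB5) and 1 higher strain (HCM1) of the 10 had a limma p under 0.05, where the background was 10.8% lower and 11.6% higher. Both tags lay on the same side of 0 on both arrays for 3 of the 10 below 0 (SIC1, SWI4, CLN1) and 1 above (HCM1), with a background of 16.9% and 17.2%. A limma fit of the 4 tag values called 0 of the 10, with a background of 0.263% lower and 0.188% higher.

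**Figure D1:**
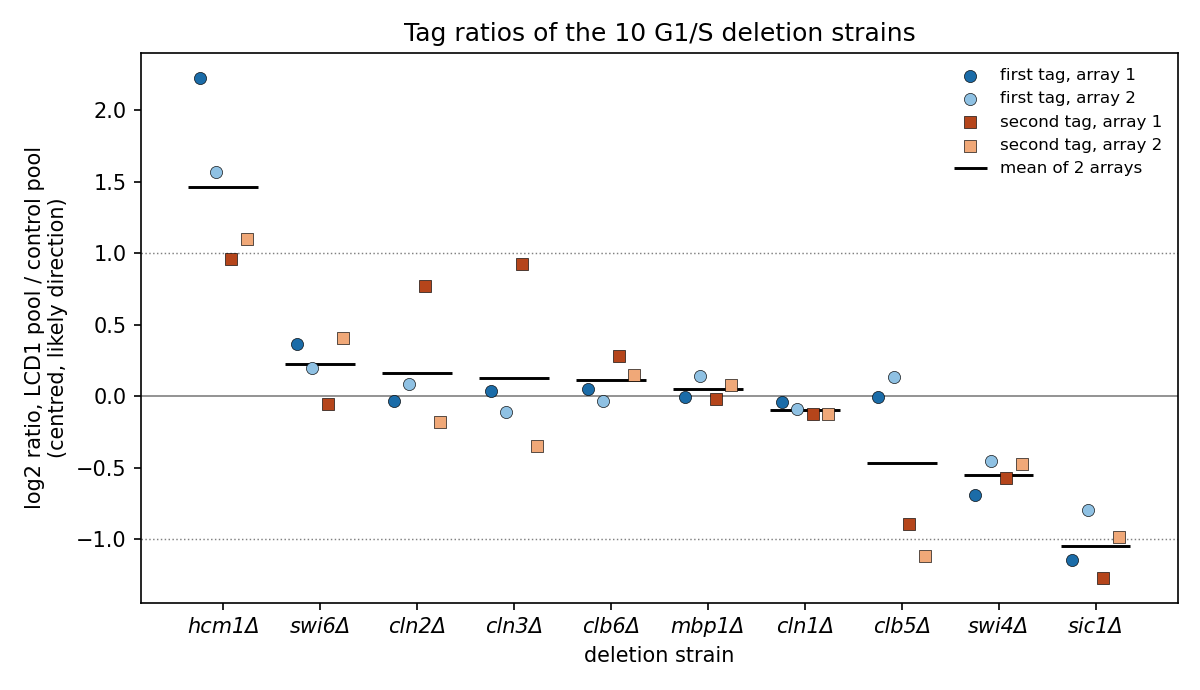
Log2 tag ratio of LCD1 pool to control pool (vertical axis) for each of the 10 deletion strains (horizontal axis, ordered by mean), with circles for the first tag, squares for the second tag, dark colours for array 1, light colours for array 2 and a bar at the mean of the 2 arrays. Dotted lines mark 2-fold, and the strain without HCM1 lies highest at a mean of 1.46 while the strain without SIC1 lies lowest at -1.05.

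The strain without HCM1 (YCR065W) read 2.22 and 1.57 with its first tag on arrays 1 and 2, and 0.96 and 1.10 with its second tag. Every reading was above 0, and the first tag was above the second on both arrays. The mean of the tags was 1.59 on array 1 and 1.34 on array 2, which gave a strain value of 1.46 ± 0.18 (SD, n = 2 arrays), or 2.76-fold. It ranked 19 of 5325 from the top. The limma adjusted p was 0.113 and missed the threshold. It was the 1 strain of the 10 that both arrays put at least 2-fold higher, where the background was 0.695% of all strains, and 0 of the 10 were at least 2-fold lower, with a background of 1.82%. It missed the stricter rule of 2-fold on both tags of both arrays through the second tag on array 1, and 0 of the 10 met that rule (background 0.151% higher and 0.377% lower). The first tag alone ranked 22 from the top of 5322 strains and the second tag alone 250 of 5312.

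The strain without SIC1 (YLR079W) read -1.14 and -0.80 with its first tag on arrays 1 and 2, and -1.27 and -0.99 with its second tag. Both tags lay below 0 on both arrays, and array 1 read lower than array 2 with either tag. The strain value was -1.20 on array 1 and -0.89 on array 2, with a mean of -1.05 ± 0.22 (SD, n = 2), or 2.07-fold lower. The limma adjusted p was 0.121 and missed the threshold. The strain ranked 133 of 5325 from the bottom. It was 2-fold lower on array 1 alone, and at least 1.5-fold lower on both arrays, where the background was 4.34%. It was the 1 strain of the 10 below that mark, as HCM1 was the 1 strain above it (background 3.87%).

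Strains without subunits of SBF and MBF gave values on both sides of 0. The strain without SWI4 (YER111C), which lacks the DNA-binding subunit of SBF, read -0.69 and -0.45 with its first tag on arrays 1 and 2, and -0.57 and -0.47 with its second. These readings lay close together and on the lower side of 0. Its strain value was -0.55 ± 0.12 (SD, n = 2), or 1.46-fold lower, and it ranked 408 from the bottom. By limma the adjusted p was 0.166.

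The strain without MBP1 (YDL056W), the DNA-binding subunit of MBF, read -0.0015 and 0.14 with its first tag and -0.019 and 0.077 with its second. The values straddled 0, and the strain value was 0.050 ± 0.084 (SD, n = 2). The strain without SWI6 (YLR182W), the subunit that SBF and MBF share, read 0.37 and 0.20 with its first tag and -0.052 and 0.40 with its second. Its strain value of 0.23 ± 0.10 (SD, n = 2) thus lay above 0 on both arrays, with 1 of 4 tag readings below. By limma the adjusted p was 0.816 for MBP1 and 0.354 for SWI6.

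The strain without SWI4 was lower than the strain without MBP1 by log2 differences of -0.62 and -0.57 on arrays 1 and 2. It was lower than the strain without SWI6 by -0.79 and -0.76. How many pairs among all strains differ as much was not counted, and the strain without SWI6 had 1 spot for each tag. With 2 arrays an exact sign-flip permutation test cannot give a two-sided p below 0.5, and no other test of differences between strains was run.

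The G1 cyclin strains lay near 0 or had opposite signs on the arrays. The strain without CLN1 (YMR199W) read -0.039 and -0.091 with its first tag and -0.13 and -0.12 with its second, all just below 0. Its strain value of -0.095 ± 0.018 (SD, n = 2) had the smallest spread of the 10 and ranked 1907 from the bottom. The limma adjusted p was 0.649.

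The strain without CLN2 (YPL256C), the close relative of CLN1, read -0.030 and 0.086 with its first tag, and 0.77 and -0.18 with its second. The second tag on array 1 was the reading that stood apart. The strain value was 0.37 on array 1 and -0.046 on array 2, a mean of 0.16 ± 0.30 (SD, n = 2; limma adjusted p 0.569), so its direction was not settled. CLN1 minus CLN2 was -0.45 on array 1 and -0.061 on array 2.

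The strain without CLN3 (YAL040C), whose product starts the G1/S programme, read 0.037 and -0.11 with its first tag, and 0.92 and -0.34 with its second. The arrays gave opposite signs, at 0.48 and -0.23, and the mean was 0.13 ± 0.50 (SD, n = 2; limma adjusted p 0.747). This was the largest spread of the 10. Of the 10 strains 3 had opposite signs on the arrays (MBP1, CLN2 and CLN3), against 1502 of all 5325.

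The strain values of the S-phase cyclin strains lay apart on both arrays, through the second tag of the strain without CLB5. The strain without CLB5 (YPR120C), the main S-phase cyclin gene, read -0.0070 and 0.14 with its first tag but -0.89 and -1.11 with its second. The first tag thus lay at 0 and the second about 2-fold lower, on both arrays. The strain value of -0.47 ± 0.028 (SD, n = 2; limma adjusted p 0.180) moved little between arrays, as the first tag read higher and the second lower on array 2, and it lay at a level that neither tag showed. By its second tag alone the strain ranked 67 from the bottom of 5312 strains, and by its first tag alone 2919 of 5322.

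A limma fit of first minus second tag over 5309 strains gave CLB5 a tag difference of 1.07 (unadjusted p 0.0177, adjusted p 0.252), which did not pass. The same fit called 0 of 5309 strains in either direction (background 0% first tag higher and 0% lower, lowest adjusted p 0.214). Before adjustment, 269 strains had a limma p under 0.05 with the first tag higher, a background of 5.07%, and CLB5 was the 1 strain of the 10 among them. With the first tag lower it gave 0 of the 10, against a background of 9.81%. HCM1 had the next largest tag difference of the 10, at 0.87 (limma adjusted p 0.369).

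The strain without CLB6 (YGR109C), the partner gene of CLB5 with an earlier and shorter-lived product, read 0.050 and -0.030 with its first tag and 0.28 and 0.15 with its second. Its strain value was 0.11 ± 0.074 (SD, n = 2; limma adjusted p 0.596). CLB5 minus CLB6 was -0.62 on array 1 and -0.55 on array 2, so the strain without CLB5 read lower on each. That difference rests on the second tag of CLB5.

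In the order of strain values, HCM1 lay above SWI6 by 1.23, which was 6.85 times the larger SD of the pair. SWI6, CLN2, CLN3, CLB6 and MBP1 followed, each within 1 SD of the next, so their order is not resolved. MBP1 and CLN1 lay 1.71 SD apart. CLN1 and CLB5 were separated by 0.37, or 13.5 times the larger SD, but this multiple is no sign of a firm order. The tags of CLB5 moved opposite ways between arrays, which kept its SD small. By the first tag CLB5 lay above CLN1, at -0.0070 and 0.14 against -0.039 and -0.091 on arrays 1 and 2. CLB5 and SWI4 differed by less than 1 SD, and SWI4 and SIC1 by 0.50, or 2.26 SD. An SD of 2 arrays is itself uncertain, so these multiples are descriptions.

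**Figure D2:**
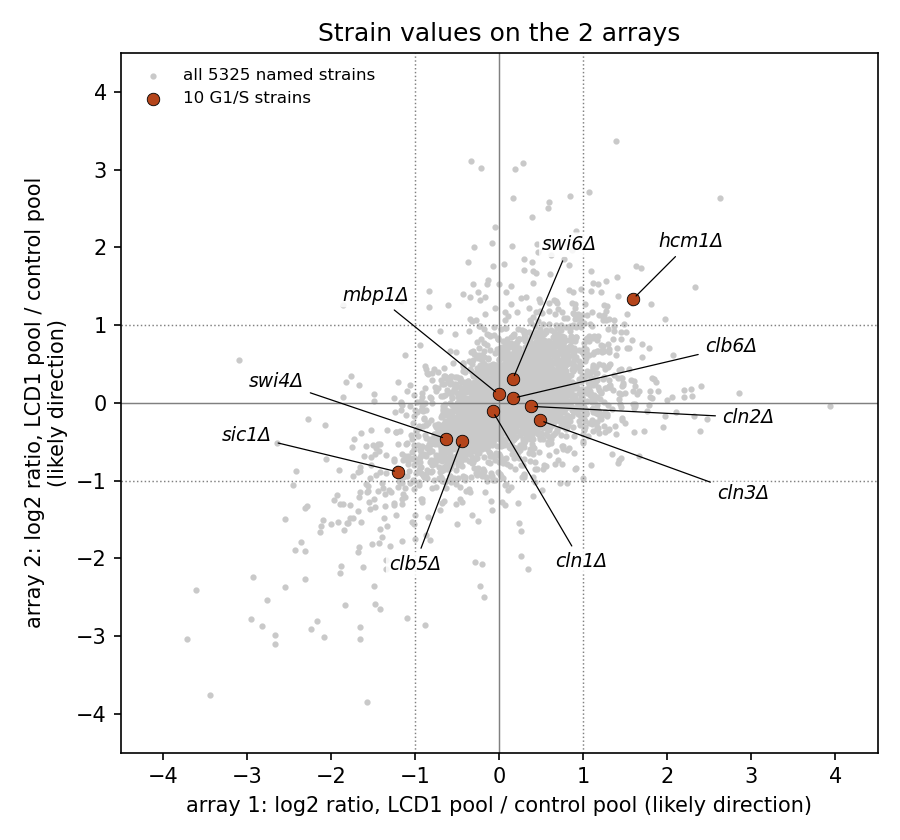
Strain value on array 1 (horizontal axis) against array 2 (vertical axis), both as log2 ratio of LCD1 pool to control pool, for all 5325 named strains in grey and the 10 G1/S strains in red. Dotted lines mark 2-fold; the strain without HCM1 lies past 2-fold on both arrays, at 1.59 and 1.34, and the strain without SIC1 past it on array 1 alone, at -1.20 and -0.89.

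Of the 10 strains, 8 were printed with 6 spots for each tag, whereas SWI6 and CLB6 had 1 spot for each. Of all strains, 793 (14.9%) had 6 or more spots per tag and 4439 had 1. Spots of an array share their pools and labelling, so they show the error of a spot and not of the experiment. They show how firmly each array read these strains.

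For the strain without SIC1, the 6 spots of the first tag lay between -1.18 and -1.09 on array 1 and between -0.98 and -0.48 on array 2. Those of the second tag lay between -1.29 and -1.25 on array 1 and between -1.16 and -0.82 on array 2. The second-tag spots on array 1 had an SD of 0.016, where the median SD of the 793 strains was 0.091. On array 1 the deposited ratios were 2.00 to 2.13 for the first tag and 2.11 to 2.17 for the second, which are control over LCD1 pool in the likely direction. The 24 readings of this strain were all below 0.

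The 24 readings of SWI4 were all below 0 as well, with spots from -0.74 to -0.64 (first tag, array 1), -0.55 to -0.25 (first tag, array 2), -0.64 to -0.49 (second tag, array 1) and -0.62 to -0.28 (second tag, array 2). For HCM1 the 24 readings were all above 0, but they were wider. Its first-tag spots ran from 1.91 to 2.65 on array 1 and from 1.35 to 1.80 on array 2. Its second-tag spots ran from 0.34 to 1.66 and from 0.36 to 1.49, with SDs of 0.47 and 0.44. SIC1, SWI4 and HCM1 were the 3 of these 8 strains with every reading on 1 side of 0. Among 778 strains with 6 or more spots per tag and no missing reading, 10.2% had every reading below 0 and 10.5% every reading above.

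The tag difference of CLB5 held across spots. Its second-tag spots lay between -0.98 and -0.80 on array 1 and between -1.25 and -0.97 on array 2, with SDs of 0.071 and 0.10. Its first-tag spots scattered around 0, from -0.49 to 0.45 on array 1 and from -0.35 to 0.83 on array 2, with 3 of 6 below 0 on each. The tags did not overlap on either array. The tighter tag was thus the lower one.

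The reading of CLN2 that stood apart was also firm within its array. The 6 second-tag spots lay between 0.66 and 0.89 on array 1 and between -0.29 and -0.063 on array 2, with SDs of 0.094 and 0.091. The arrays therefore differed for this tag by more than the spread of spots, while its first-tag spots stayed between -0.12 and 0.21 over both arrays.

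CLN3 was the opposite case. Its second-tag spots on array 1 ran from -1.67 to 2.66, with an SD of 1.58 that ranked 9 of 793 from the top, and 5 of 6 were above 0. On array 2 they ran from -0.78 to 0.15. The first tag gave SDs of 0.055 and 0.15. With the spot of the second tag that was below 0 on array 1 left out of both arrays, the strain read 0.74 and -0.19, so the arrays still had opposite signs.

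The spots of CLN1 and MBP1 stayed close to 0. For CLN1, 22 of 24 readings were below 0, between -0.24 and 0.018. For MBP1 the readings ran from -0.25 to 0.35, with 8 below 0 and 15 above.

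**Figure D3:**
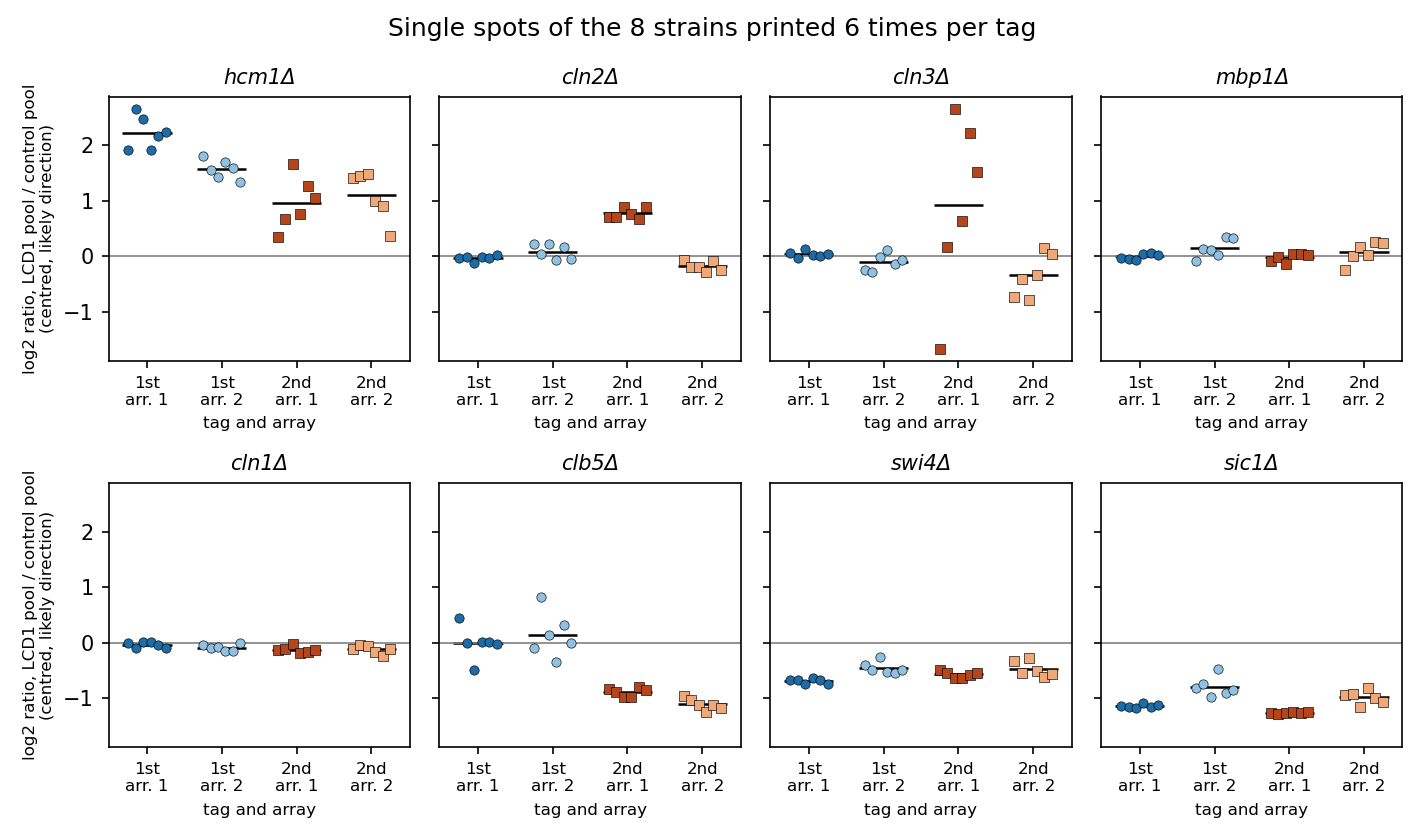
Log2 ratio of LCD1 pool to control pool (vertical axis) for every spot of the 8 strains with 6 spots per tag, grouped by tag and array (horizontal axis), with a bar at the mean of each 6 spots. The spots of SIC1 and SWI4 lie below 0 and those of HCM1 above 0 throughout, whereas the second tag of CLN3 on array 1 runs from -1.67 to 2.66.

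Across the 10 strains, the arrays gave a Pearson's r of 0.919 and a Spearman's rho of 0.697, and between the means of the first and second tag r was 0.783 and rho 0.552. Without HCM1 the values for 9 strains were 0.817 and 0.583 between arrays and 0.668 and 0.383 between tags. Over all strains r was 0.547 and rho 0.539 between arrays, and r was 0.142 and rho 0.229 between tags. For the 793 strains with 6 or more spots, r between tags was 0.324 and rho 0.412. These are descriptions across strains that share arrays and pools. The median SD between arrays was 0.11 for the 10 strains, 0.12 for the 793 and 0.15 for all.

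Other deletions of the G1/S network gave values on both sides of 0. Of 70 further genes in 5 lists, 66 had a strain with values, 33 of them below 0 and 33 above, with a median of 0.0084 against 0.036 for all strains. The 66 include strains without essential genes, among them CDC28, CKS1, CAK1 and MCM1, whose readings are no measure of growth. At least 2-fold lower on both arrays were 2 of the 66, where the background was 1.82%, and 0 were 2-fold higher, with a background of 0.695%. By limma on strain values 0 of the 66 passed, while 11 lower and 9 higher had an unadjusted p under 0.05, against a background of 10.8% and 11.6%. The limma fit of the 4 tag values called 1 of the 66, RAD27, on the lower side, where the background was 0.263%. On the higher side it called 0, with a background of 0.188%. The p of this fit is too small because tags of an array share their pools.

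The list of G1/S activators, repressors and the G1 Cdk held 15 strains with a median of 0.037, 7 below 0 and 8 above, and 0 past the 2-fold rule. Its member farthest from 0 was the strain without WHI2, whose product takes part in the general stress response, at -0.94 and -0.76 on the arrays (mean -0.85 ± 0.13, SD, n = 2; limma adjusted p 0.130). Some members are given here by their role, chosen after their values were seen. The strain without WHI5, the repressor of SBF that Cln3 kinase removes, read -0.071 and -0.34. Its tags disagreed, at -0.44 and -0.99 for the first and 0.30 and 0.32 for the second. The strain without STB1, a partner of Swi6, read -0.27 and -0.65. The strain without BCK2, which promotes G1 exit in parallel to Cln3, read 0.022 and -0.028. The strain without NRM1, the corepressor of MBF, read 0.27 and 0.16. The related G1 factors MSA1 and MSA2 lay on opposite sides, at 0.49 and 0.35 without MSA1 and at -0.52 and -0.35 without MSA2. CDC28 encodes the essential kinase of all these cyclins, and its tags, which read from -1.63 to 4.49, are no measure of growth.

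The Pho85 kinase and its cyclins, some of which act in G1 beside the Cln proteins, gave 9 strains with a median of 0.059, 2 below 0 and 7 above, and 0 past the 2-fold rule. The strain without PCL1, a G1 cyclin gene of Pho85 driven by SBF, was farthest from 0, at 1.01 and 0.63 (mean 0.82 ± 0.27, SD, n = 2; limma adjusted p 0.146). Its first tag read 1.70 and 1.13 and its second 0.32 and 0.13, so the first tag carried most of that value. The strain without the related cyclin gene PCL2, chosen after its values were seen, read -0.048 and 0.091.

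The SCF ubiquitin ligase list held 10 strains with a median of 0.20, 4 below 0 and 6 above, and 0 past the 2-fold rule. Some of its products act in the destruction of Sic1 and the Cln proteins. The strain farthest from 0 lacked CDC34, the essential ubiquitin-conjugating enzyme that acts on Sic1, at -1.21 and -0.53 (mean -0.87 ± 0.48, SD, n = 2; limma adjusted p 0.178). As its haploids cannot grow in either pool, its reading is a tag ratio and no measure of growth. The same holds for the essential genes CDC4, CDC53, SKP1, HRT1 and MET30. The median and the sign counts of the list include all of these strains. The strain without GRR1, the F-box protein that targets Cln1 and Cln2, is viable and was chosen after its values were seen. It read 0.63 and 0.53 with its first tag and 0.89 and 0.92 with its second, a mean of 0.74 ± 0.024 (SD, n = 2; limma adjusted p 0.133).

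Mitotic cyclins and later cell cycle factors gave 15 strains with a median of 0.12, 7 below 0 and 8 above, and 0 past the 2-fold rule. The strain without FKH2, a forkhead factor gene that Hcm1 drives, lay farthest from 0 at 0.45 and 0.74 (mean 0.59 ± 0.21, SD, n = 2; limma adjusted p 0.172). Its tags read 0.33 and 1.47 for the first and 0.56 and 0.016 for the second, so the first tag on array 2 carried much of that mean. Its relative FKH1 read 0.30 and -0.025, and the strain without NDD1, an essential gene that Hcm1 drives too, read -0.13 and 0.035. The strains without the mitotic cyclin genes CLB1, CLB2, CLB3 and CLB4 had means of 0.22, 0.38, 0.22 and 0.46, and 0 of them passed in limma. Of all 5325 strains, 2880 had a mean above 0. The second tag read below 0 for CLB1 on array 1 (-0.036) and for CLB2 on array 2 (-0.33). For CLB4 it read 1.12 on array 1 and 0.072 on array 2. The FKH1, NDD1 and mitotic cyclin strains were chosen after their values were seen.

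The list of SBF, MBF and Hcm1 target genes held 21 strains with a median of -0.084, 15 below 0 and 6 above. Of these, 10 lack essential genes (RNR1, CDC21, POL1, POL2, CDC45, CDC6, MCD1, DSN1, SPC34 and NDD1), whose readings are no measure of growth. Among the other 11 the median was -0.078, and 7 lay below 0 and 4 above. Of all 5325 strains, 2445 lay below 0 and 2880 above. The 2 strains of the wider network past the 2-fold rule, both lower, were in this list (background 1.82% of all strains). The strain without RAD27, the flap endonuclease of lagging-strand synthesis, read -1.81 and -1.55 (mean -1.68 ± 0.19, SD, n = 2; limma adjusted p 0.113). Its tags read -2.04 and -1.75 for the first and -1.59 and -1.35 for the second, past 2-fold on both tags of both arrays. The limma fit of the 4 tag values gave it an adjusted p of 0.0415, which is too small because tags of an array share their pools. The strain without SPC34, an essential gene of the kinetochore DASH complex, read -1.34 and -1.59 (mean -1.46 ± 0.18, SD, n = 2; limma adjusted p 0.113). The tags of SPC34 disagreed, at -2.57 and -2.91 for the first and -0.098 and -0.26 for the second. This reading too is no measure of growth.

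**Figure D4:**
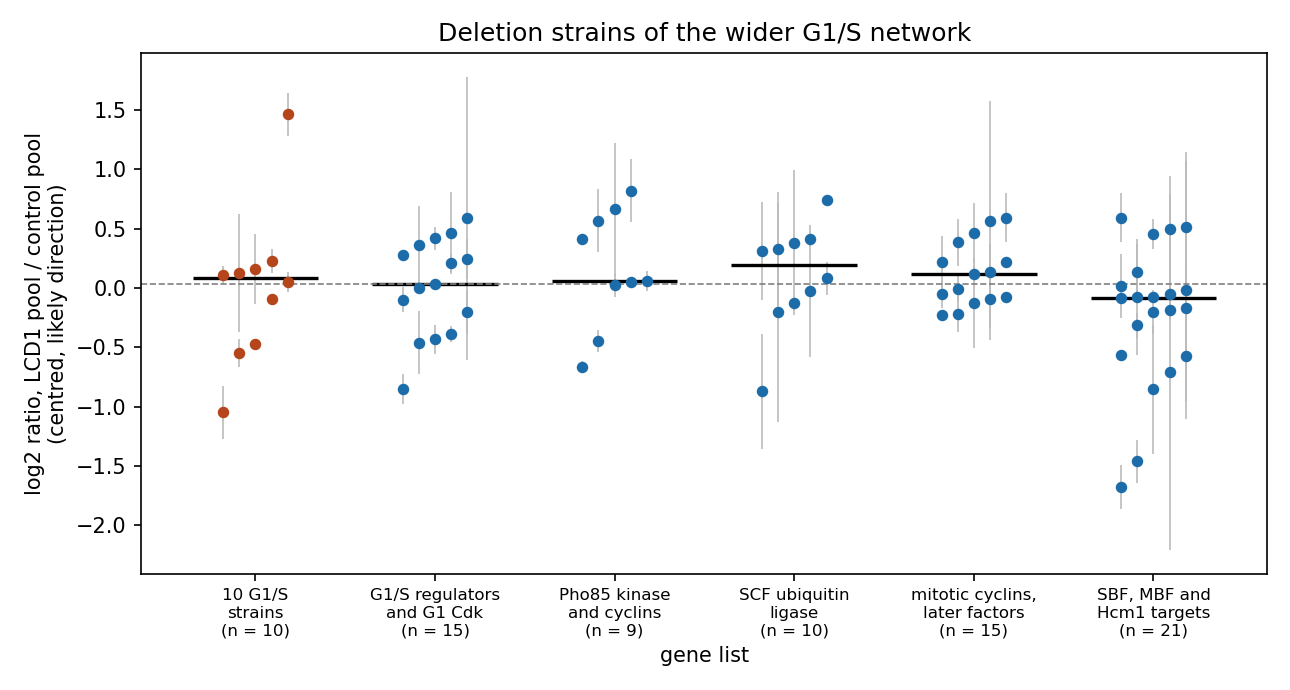
Strain value as log2 ratio of LCD1 pool to control pool (vertical axis) for the 10 G1/S strains and for 5 gene lists of the wider network (horizontal axis), with points for the mean and bars for the SD of 2 arrays, black lines at list medians and a dashed line at the median of all strains. List medians lie between -0.084 and 0.20, and the 2 strains of the lists past 2-fold on both arrays, without RAD27 and SPC34, are in the target list.

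The strains lacking the nearest named gene on either side of each of the 10 genes were read beside them, in the gene order of assembly R64. These 20 strains had a median of -0.063, against 0.036 for all strains, with 2 at least 2-fold lower on both arrays (background 1.82%) and 0 higher (0.695%). The 20 include strains without essential genes, among them LSM4, CDC24, BBP1, BOS1, PSA1 and ROT1, whose readings are no measure of growth. Neighbours of HCM1 did not share its level on both sides: the strain without BUD31, a splicing factor gene, read 0.84 and 0.73, and the strain without RAD18, a ubiquitin ligase gene of post-replication repair, read -0.099 and 0.0054. The reading of BUD31 came from its second tag, at 1.26 and 1.24, more than from its first, at 0.43 and 0.21. Beside SIC1, and chosen after their values were seen, the strain without the lectin-like cargo receptor gene EMP46 read 0.040 and -0.064, and the strain without BOS1, an essential gene of vesicle transport, read -0.93 and -1.23. The tags of BOS1 went opposite ways, at -4.09 and -3.10 for the first and 2.22 and 0.63 for the second, and its reading is no measure of growth. The 2 neighbours past the 2-fold rule were those of strains near 0. They lacked PSA1 (-1.16 and -1.78), an essential sugar nucleotide gene beside MBP1, and ROT1 (-1.58 and -1.15), an essential gene beside CLN1, so neither is a measure of growth.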

How the data were processed

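Per the labels' protocols, tag images were read with GenePix 5.1. The values the authors deposited are log2 dye ratios, a scale inferred from the numbers. Normalization, filters and direction are not given in the sources used. Features were named by the platform annotation, with symbols from the gene table of assembly R64. After the sign was turned, the mean of a gene's spots was taken per tag block (ID up to 10971, the first tag, and above, the second), each block was centred per array on its median, and tags were averaged to 1 value per strain and array. limma 3.58.1 in R 4.3.3 (intercept, eBayes, two-sided, Benjamini-Hochberg over all strains) tested strain values and tag differences, with 1 dye orientation and no covariate, after a test on simulated data. A size rule asked for 2-fold on both arrays. The 10 genes, the lists and the rules were chosen with earlier results of these data known. Named were the 10 genes, LCD1, list members and neighbours past the size rule, otherwise the list member farthest from 0, and neighbours of a gene past it; others are marked as chosen later. Whether the arrays hold separate cultures is not stated, so p-values may measure technical spread alone. No intensities were used here, so signal over background is unknown, and the number of arrays limits the precision.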

Additional observations from a re-analysis of the deposited data

How the results depend on the processing

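No analysis with paired arrays was possible because the arrays form 1 group. Pairing was used only within an array, for the tags of a strain in the tag-difference fit and for the pools in each ratio. The strains without SWI4, SWI6, HCM1, CLB6 and SIC1 had the same sign in all 8 alternatives, with values of -0.63 to -0.42, 0.16 to 0.35, 1.03 to 1.90, 0.0096 to 0.24 and -1.20 to -0.89, and none of the 10 passed limma in any alternative that could be tested. Direction turned for CLN1 without centring (0.030) and for CLN3 (-0.035) and CLB5 (0.065) with the first tag alone. Leaving out either array gave -0.046 to 0.37 for CLN2, -0.23 to 0.48 for CLN3 and -0.010 to 0.11 for MBP1. The 1 member at least 2-fold higher, HCM1, dropped out (0 members) with the second tag alone and under the both-tag rule. The count of members 2-fold lower, 0, became 1, SIC1, at 1.5-fold; leaving out either array gave 0 to 1 lower (SIC1 without array 2). Of all strains, 97 were lower and 37 higher by the size rule. These counts were 270 and 98 with the first tag alone, 30 and 80 with the second alone, 231 and 206 at 1.5-fold, 20 and 8 under the both-tag rule, and 150 to 185 and 137 to 253 when either array was left out; without centring 60 were higher. The limma fit of the 4 tag values called 14 strains lower and 10 higher, against 0 and 0 for strain values, but tags of an array share their pools and its p is too small; 0 of the 10 were among them, with SIC1 at an adjusted p of 0.0543. The cause of these shifts was not tested. Leaving out 1 spot of CLN3, an alternative chosen after seeing the data, gave 0.28.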
